A study of Rattus norvegicus with 12 samples.

Results

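The respiratory chain and ATP synthase are the protein complexes of the inner mitochondrial membrane that turn the oxidation of fuel into ATP. This account follows the transcripts of their nuclear-encoded subunits in the injured rat kidney. Members were chosen by gene name. They are the genes whose name on the array starts with Nduf, Uqcr, Cox4 to Cox8 or Atp5, together with Sdha to Sdhd, Cyc1 and Cycs. The rule found 91 genes, read by 115 probes, among 26442 genes and 30367 probes. Of the 91, 89 were bright enough to be tested, among 18517 genes tested in all. Cox8c, the testis form of a cytochrome c oxidase subunit, was not well above background on any array, and Ndufaf2, an assembly factor, did not pass the filter in any group.

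All kidneys came from 10-week-old female F344 rats, an inbred strain, and each array held RNA of the whole left kidney of 1 rat. In 2 groups of 4 rats, the left kidney was made ischemic and reperfused (ischemia reperfusion injury, IRI), and the rats were killed at day 3 or day 7 after the operation. The remaining group, also of 4 rats, had a sham operation and was killed at day 7, so no sham kidney from day 3 was compared. No gene was altered and no drug is named. The series is about adaptive and maladaptive repair of renal tubules, and the comparisons here ask how the genes of oxidative phosphorylation stood in the kidney at both times after injury.

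Complex I takes electrons from NADH and complex II takes them from succinate. Both pass them to coenzyme Q, from which complex III moves them to cytochrome c and complex IV to oxygen. Complexes I, III and IV pump protons, and complex V, the ATP synthase, makes ATP as the protons flow back. The kidney's tubule cells, the proximal tubule above all, are rich in mitochondria because salt and solute transport costs much ATP. The core subunits encoded by mitochondrial DNA had no probe under their names and were not analysed here, so the data cover the nuclear-encoded share of each complex.

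Of the 91 members, 37 belong to complex I, 4 to complex II, 8 to complex III, 16 to complex IV and 15 to complex V, and 1 is cytochrome c itself. These 81 genes are called subunits below, and 80 of them were tested. They include Ndufa10l1, by its name a relative of Ndufa10, which is counted with complex I. Another 6 members are assembly factors whose names match, 3 are close relatives or a pseudogene (Ndufb4l1, Cox6c1 and Atp5hl1), and Cox4nb is not a respiratory gene at all. Its current symbol is Emc8, a subunit of the endoplasmic reticulum membrane complex. The older ATP synthase names of the array are kept here. Atp5a1, for example, is now Atp5f1a.

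The nuclear genes of respiration are classically described as targets of NRF1, of GABPA, an ETS-family factor, and of the estrogen-related receptors. Since many members moved together, the promoter windows of RefSeq on the assembly GRCr8 (250 bases before to 50 bases after each gene's start) were searched on both strands. A window was found for 77 of the 91 members. The NRF1-type motif (GCGCA, any base, GCGC) lay in 15 of these 77 windows (19.5%), and in 4.71% of all 27457 windows of the same length. The ETS motif CCGGAAG lay in 22 member windows (28.6%) and in 9.22% of all windows. The motif of the estrogen-related receptors, TCAAGGTCA, lay in 2 member windows (2.6%), those of Atp5g3 and Sdhd, and in 0.412% of all windows. In no member window did matches of different motifs overlap, and 1 window, that of Atp5i, held both the NRF1-type and the ETS motif. These are matches of letters and not shown to be bound sites. The 250 bases before the start are printed for 4 members that fell at day 3, 1 for each of complexes I to IV, with the matches in capitals and read 5′ to 3′ on the gene's strand. In Ndufv3 (chr20:9613536-9613785, plus strand) and Sdha (chr1:30764303-30764552, plus strand) the capitals mark the NRF1-type motif. In Uqcrq (chr10:38089979-38090228, minus strand) and Cox8a (chr1:213833624-213833873, minus strand) they mark the ETS motif. The stretches of Sdha and Cox8a hold 2 matches each and the others hold 1. Another match of Sdha runs across the start and is not shown.
Ndufv3: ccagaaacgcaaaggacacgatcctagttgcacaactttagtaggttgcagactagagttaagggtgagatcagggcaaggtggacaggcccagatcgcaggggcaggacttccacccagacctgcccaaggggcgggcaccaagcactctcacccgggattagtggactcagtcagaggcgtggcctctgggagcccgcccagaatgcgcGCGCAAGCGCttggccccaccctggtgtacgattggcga
Sdha: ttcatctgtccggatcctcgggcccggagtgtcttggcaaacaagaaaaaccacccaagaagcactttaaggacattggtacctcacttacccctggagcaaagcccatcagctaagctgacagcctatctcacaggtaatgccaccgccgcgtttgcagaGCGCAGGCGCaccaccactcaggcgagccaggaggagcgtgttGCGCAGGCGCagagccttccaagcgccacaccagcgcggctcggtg
Uqcrq: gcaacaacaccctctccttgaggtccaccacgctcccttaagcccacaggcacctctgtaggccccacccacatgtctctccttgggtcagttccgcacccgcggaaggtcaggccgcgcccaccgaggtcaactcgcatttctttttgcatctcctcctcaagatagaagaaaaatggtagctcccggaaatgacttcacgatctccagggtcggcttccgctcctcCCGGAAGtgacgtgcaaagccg
Cox8a: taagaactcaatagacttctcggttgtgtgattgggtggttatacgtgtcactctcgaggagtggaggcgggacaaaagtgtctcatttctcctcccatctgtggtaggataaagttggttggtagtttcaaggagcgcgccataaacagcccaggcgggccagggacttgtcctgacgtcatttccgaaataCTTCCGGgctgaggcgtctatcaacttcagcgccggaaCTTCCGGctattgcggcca

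The members that fell at day 3 were found both with and without a motif. Of the 15 tested members with an NRF1-type motif, 5 were lower at day 3, with a median log2 fold change of -0.25, and of the 60 tested members without it 28 were lower, with a median of -0.36. Of the 22 with the ETS motif, 8 were lower, with a median of -0.27, against 25 of 53 without it, with a median of -0.37. These shares are a description of the members, and no test was made of them.

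Levels are given as the log2 of a probe's signal minus the log2 of the 75th percentile of its array, so 0 is the brightness of that percentile and a difference of 1 is 2-fold. Signals of different probes cannot be compared with each other. A gene is said to have risen or fallen where limma, a linear model fitted to all 18517 genes, gave an adjusted p (Benjamini-Hochberg) under 0.05. The unscaled 75th percentile was 328 ± 72.6 in sham, 714 ± 34.5 at day 3 and 502 ± 60.9 at day 7 (mean ± SD, n = 4), so the scaling removed a difference in brightness that followed the groups. Between 65.0% and 80.6% of spots were well above background on an array.

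At day 3 after IRI, many of the members had fallen. Of the 89 tested, 43 were lower than in sham (48.3%, where 33.1% of all tested genes were lower) and 3 were higher (3.37%, where 24.2% of all tested genes were higher). The median log2 fold change of the members was -0.345, and that of all tested genes was -0.13. In 40 members every day 3 array lay below every sham array, and in 4 every one lay above, where 29.5% and 22.2% of all tested genes did so (51.7% in either direction). The injured kidney had changed widely by then, with 57.3% of all genes called, so the count of lower members stands against a high background. Fewer cells of a type and less RNA per cell cannot be told apart in these whole-kidney samples. The scaling bears on the counts: with arrays scaled to their total signal 16 members were lower and 11 higher, and with arrays scaled to their median 19 were lower and 9 higher. Of all 18517 tested genes, 4398 were lower and 6216 higher with total scaling, and 4913 and 5534 with median scaling. The share of lower members was thus below that of all genes under both scalings. The median of all genes was then 0.15 and 0.08, and that of the members -0.07 and -0.14. Among the 29 members named by rule, total scaling ended the day 3 calls of Atp5a1, Cox7a2, Cox8a, Cyc1, Ndufa4, Ndufv2, Sdhb, Sdhc, Uqcr11 and Uqcrb. Median scaling ended those of all of these but Atp5a1 and Ndufa4. Other members described below lost their calls too, and the counts left are given with each complex. Within a comparison, total and median scaling each moved the fold changes of all genes by the same amount. At day 3 that amount was less than the smallest fall of the 43, that of Cyc1, which became -0.04 and -0.11. That all 43 stayed below 0 under those scalings thus followed from the shift and was no separate test. Under quantile normalization all 43 also kept a fold change below 0. The background model bears on them too. With normexp on the raw spot signals limma called 0 members in each of the 3 comparisons. Of all genes it still called 17.1% at day 3, but 0.491% at day 7 against sham and 0.859% at day 7 against day 3. The members' median at day 3 was 0.0426, above the median of all genes, -0.41, and 11 of the 43 changed sign. With spots below their local background left out of that model, an alternative chosen after seeing the data, 35 members were lower and 5 higher, and all 43 kept their direction. Of all 18517 tested genes 8007 were then lower and 3879 higher. The median was -0.24 for the members and -0.27 for all genes, so the members fell no more than all genes in that setting. Without sham replicate 4, 36 members were lower and 7 higher, where 5955 of all tested genes were lower and 4337 higher.

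By array, the median member stood at -0.03, 0.07, -0.11 and 0.08 relative to the sham mean in sham replicates 1 to 4. It stood at -0.44, -0.30, -0.23 and -0.45 in day 3 replicates 1 to 4. At day 7 it stood at 0.00, 0.03, -0.12 and 0.15. The 4 day 3 kidneys thus lay below all others, and the day 7 kidneys overlapped with sham. The plot of subunits by array shows the same kidneys gene by gene.

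**Figure D1:**
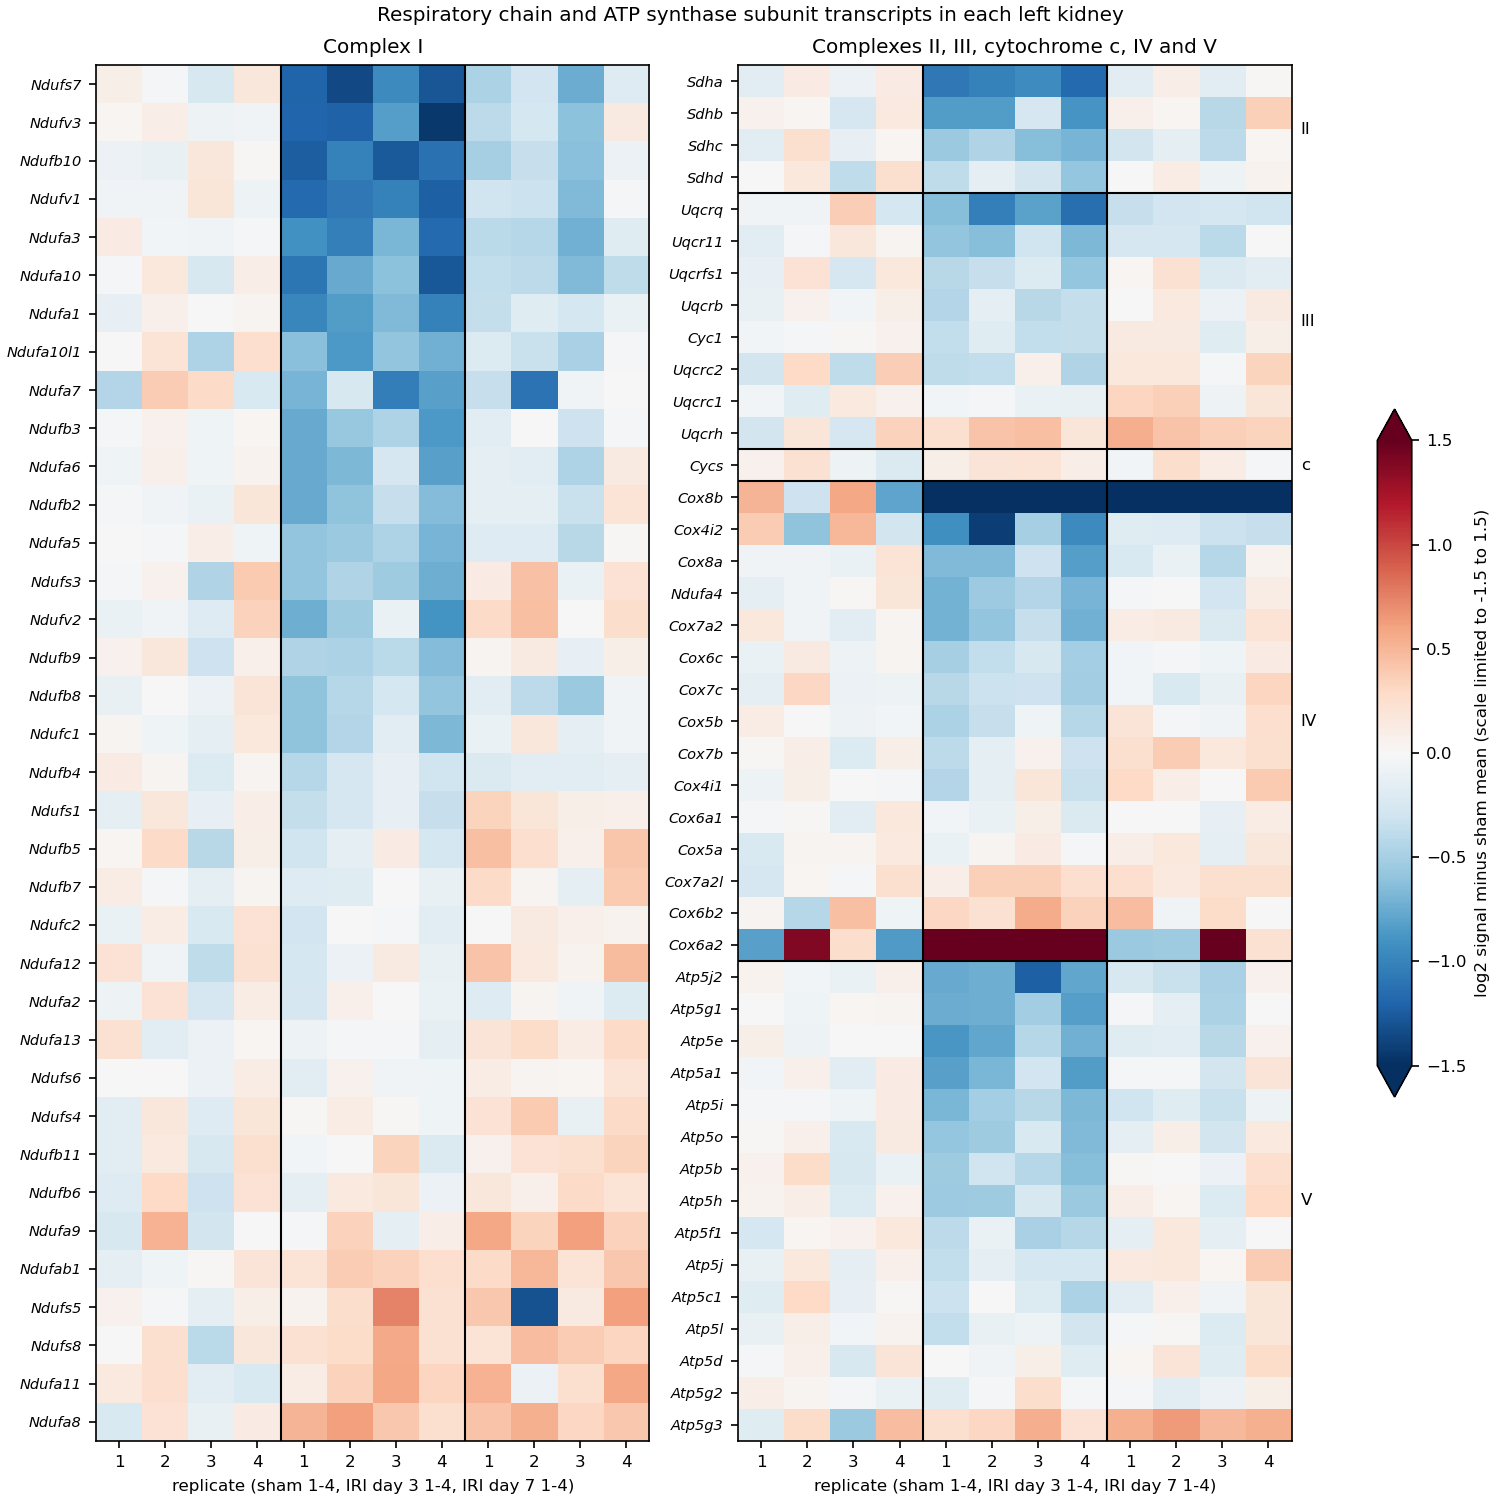
Each row is a subunit transcript and each column an array, with colour giving the log2 signal minus the mean of the 4 sham arrays, limited to -1.5 to 1.5. Blue rows, lower at day 3 (middle 4 columns) and paler at day 7 (right 4 columns), fill the upper part of each complex, and rows at the bottom of complexes I, IV and V do not turn blue.

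At day 7 the members were back near their sham levels. Of the 89, 0 were higher than in sham and 1, Cox8b, was lower by limma, where 8.21% of all tested genes were higher and 10.6% lower. At an unadjusted p under 0.05 there were 14 members, and the median log2 fold change was 0.01, with -0.07 for all tested genes. In 4 members every day 7 array lay above every sham array and in 5 below it, where 9.03% and 12.6% of all tested genes did so (21.7% together). Called genes made up 18.8% of all tested genes. With arrays scaled to total signal, 16 members were higher than in sham and 1 lower, and the median was 0.25, at a median of 0.17 for all genes. Of all 18517 tested genes 3238 were then higher and 914 lower, so the share of higher members was close to that of all genes. Leaving out an array gave up to 3 higher, without sham replicate 4, with 2 without replicate 2 and 1 without replicate 1. Of all tested genes 1492, 1307 and 1136 were then higher. It gave up to 3 lower, without day 7 replicate 4, with 2 without sham replicate 3, where 1889 and 1515 of all tested genes were lower. A difference that misses the threshold is not equality: the 95% interval of day 7 minus sham lay within 1 log2 unit of 0 for 78 of the 80 subunits, and within 0.5 units for 41.

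Between the injured groups, 39 members were higher at day 7 than at day 3 and 2 were lower, Cox6a2 and Cox4nb, where 18.0% of all tested genes were higher and 13.4% lower. In either direction 31.4% of all tested genes were called. The members' median was 0.38, and the median of all tested genes was 0.05. In 40 members every day 7 array lay above every day 3 array and in 2 below it, where 18.6% and 17.5% of all tested genes did so (36.1% together). This comparison and that of day 3 with sham share the day 3 arrays. Of all tested genes 3335 were higher. In the following fits that left out an array, both the count of 39 and that of all genes fell. Without day 3 replicate 4, 17 members and 1993 genes were higher. Without day 3 replicate 1 these counts were 20 and 2605, and without day 3 replicate 2 they were 20 and 2068. They were 19 and 2113 without day 7 replicate 4, 23 and 2499 without day 7 replicate 1, and 25 and 2426 without day 7 replicate 2. With arrays scaled to their median 11 members were higher and 2 lower, where 2406 of 18517 genes were higher and 3302 lower. The share of higher members was then close to that of all genes.

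Of the 43 members lower at day 3, 33 rose again by day 7 and were no longer called against sham. For 9 others the rise was not called: Cox4i2, Cox7c, Ndufa10l1, Ndufa6, Ndufa7, Ndufaf3, Ndufb8, Sdhc and Uqcr11. Cox8b rose and was still low. All 43 had a day 7 mean above their day 3 mean, and in 12 it was at or above the sham mean. The median member of the 43 had regained 75.8% of its log2 loss, from 33.1% for Cox8b to 144% for Ndufv2. At the other end, 38 members passed no comparison.

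**Figure D2:**
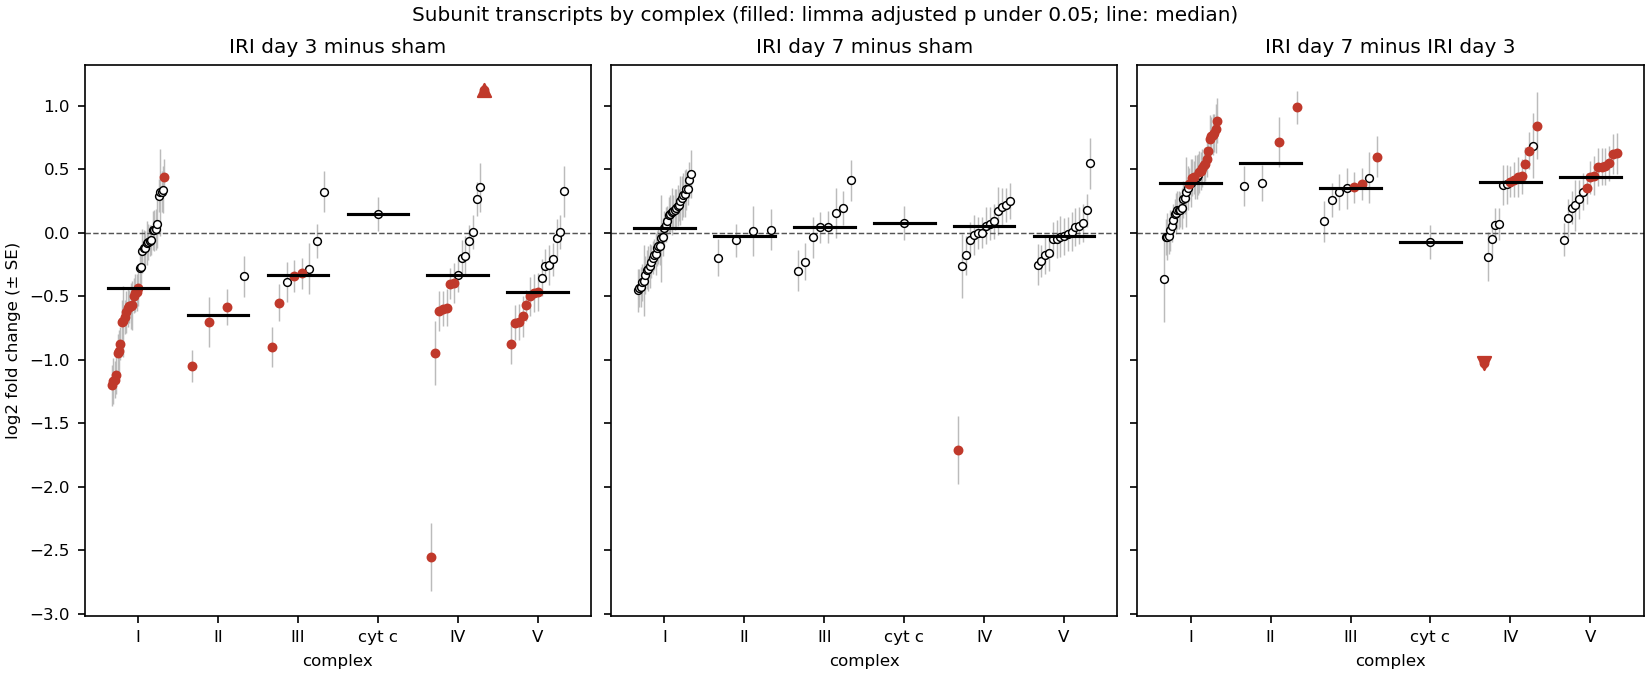
Points are tested subunits, grouped by complex along the x axis, with the log2 fold change ± SE on the y axis in each of the 3 comparisons. Filled points passed limma's adjusted p of 0.05, black lines are medians, and triangles show Cox6a2 at its bound (it has no point at day 7 against sham). At day 3 the 5 complexes have medians between -0.645 and -0.33, and at day 7 Cox8b is the filled point.

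Complex I is the largest complex, with a peripheral arm that oxidises NADH and a membrane arm that pumps protons. At day 3, 19 of its 37 members had fallen and 1, Ndufa8, had risen, with a median log2 fold change of -0.43. Of all tested genes 33.1% were lower and 24.2% higher. With total scaling 8 members were lower and 4 higher, and with median scaling 9 and 4. By day 7, 16 had risen from day 3 (6 with median scaling), where 18.0% of all tested genes had. Among the core subunits of the NADH-oxidising N module, Ndufv1, which binds FMN and NADH, and its partner Ndufv2 had fallen, and Ndufs1 stood at -0.27 (adjusted p 0.0978). All 3 were higher at day 7 than at day 3. Of the core subunits of the Q module, which hands electrons to coenzyme Q, Ndufs7 and Ndufs3 had fallen and Ndufs8 stood at 0.32 (adjusted p 0.104). Of 30 accessory subunits, 14 had fallen, with Ndufa10 and its relative Ndufa10l1 counted separately, and 1 had risen.

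Ndufs7 holds the last iron-sulfur cluster before coenzyme Q, and it fell most among complex I members when each gene is read by its brightest probe. Its probe lies at chr7:10963975-10964034 of the build rn4. It read 2.05, 1.94, 1.71 and 2.12 in sham, 0.75, 0.60, 1.0 and 0.67 at day 3, and 1.48, 1.67, 1.21 and 1.76 at day 7. The day 3 arrays lay apart from both other groups, and day 7 overlapped with sham. The log2 fold change was -1.20 ± 0.16 (SE) at day 3, which is 2.3-fold lower (adjusted p 9.17e-05 by limma), and -0.43 at day 7 (adjusted p 0.0838).

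Ndufv3, an accessory subunit at the tip of the NADH-oxidising arm whose promoter is printed above, fell nearly as far. It read 4.49, 4.55, 4.38 and 4.41 in sham, 3.27, 3.24, 3.63 and 3.02 at day 3, and 4.06, 4.20, 3.85 and 4.60 at day 7. Its log2 fold change at day 3 was -1.17 ± 0.18 (adjusted p 0.000214 by limma). Its dimmer probes had fallen by 1.57 and by 0.62. Ndufv1 went from 4.46 ± 0.12 in sham to 3.34 ± 0.10 at day 3 and 4.13 ± 0.26 at day 7 (mean ± SD, n = 4). Ndufv2 had lost less, -0.57 at day 3, and was 0.82 higher at day 7 than at day 3 (adjusted p 0.00965 by limma), with a day 7 mean of 2.65 above its sham mean of 2.40. Its day 3 arrays overlapped with sham, and its call at day 3 was lost without sham replicate 4 or without day 3 replicates 1 or 4 (adjusted p up to 0.0781).

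Ndufa8 is an accessory subunit of the membrane arm, and it was the complex I member called higher at day 3. It read -1.15, -0.70, -1.02 and -0.79 in sham, -0.41, -0.29, -0.51 and -0.67 at day 3, and -0.48, -0.37, -0.61 and -0.51 at day 7. Both injured groups lay above sham. It stood 0.44 ± 0.14 above sham at day 3 (adjusted p 0.0191 by limma) and 0.42 at day 7 (adjusted p 0.0602). The day 3 call was lost without sham replicate 1 or day 3 replicate 2 (adjusted p up to 0.0609), and under both normexp models (adjusted p 0.0544 and 0.779). The day 7 difference passed under 4 other processing settings and without sham replicate 2, with adjusted p 0.00875 when arrays were scaled to total signal. For Ndufs5, another accessory subunit, day 7 replicate 2 read 1.35 and the other day 7 arrays between 2.79 and 3.27.

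Complex II, succinate dehydrogenase, is shared by the respiratory chain and the citric acid cycle and is encoded by nuclear genes alone. At day 3, 3 of its 4 genes had fallen, with a median of -0.645, and its catalytic subunits had risen again by day 7. Of all tested genes 33.1% were lower at day 3, and 18.0% were higher at day 7 than at day 3. With median scaling 1 of the 4 genes was called higher at day 7 than at day 3. Sdha, the flavoprotein that oxidises succinate, holds the NRF1-type motif in the stretch printed above, and its probe lies at chr1:29763988-29764047 of rn4. It read 5.42, 5.71, 5.49 and 5.70 in sham, 4.51, 4.57, 4.63 and 4.41 at day 3, and 5.41, 5.67, 5.42 and 5.59 at day 7. The day 3 arrays lay well below the rest, and the day 7 and sham ranges were nearly the same. Its log2 fold change was -1.05 ± 0.13 at day 3 (2.07-fold lower, adjusted p 5.41e-05 by limma) and -0.06 at day 7 (adjusted p 0.8), and it was 0.99 higher at day 7 than at day 3 (adjusted p 0.000672).

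Sdhb, the iron-sulfur subunit, read 4.28, 4.25, 3.97 and 4.37 in sham, 3.38, 3.39, 3.97 and 3.33 at day 3, and 4.30, 4.25, 3.81 and 4.58 at day 7. Day 3 replicate 3 stood at the lower edge of sham and the other 3 day 3 arrays stood apart. Its log2 fold change at day 3 was -0.70 ± 0.20 (adjusted p 0.00942 by limma), and the rise of 0.72 by day 7 (adjusted p 0.0185) was lost without day 3 replicate 2 or 4, or without day 7 replicate 4 (adjusted p up to 0.0574). Of the membrane anchors, Sdhc had fallen by 0.59 on the log2 scale (adjusted p 0.00428), and Sdhd stood at -0.34 (adjusted p 0.0837). With arrays scaled to total signal or to their median the day 3 calls of Sdhb (adjusted p 0.0774 and 0.0569) and Sdhc (adjusted p 0.07 and 0.0782) were lost, which left 1 of the 4, Sdha.

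Complex III passes electrons from coenzyme Q to cytochrome c. At day 3, 4 of its 8 members had fallen, with a median of -0.33, and 3 had risen again by day 7. Of all tested genes 33.1% were lower at day 3, and 18.0% were higher at day 7 than at day 3. Under total and under median scaling 1 member was lower and 1 higher at day 3, and 1 was higher at day 7 than at day 3. The small subunit Uqcrq fell most. It read 2.14, 2.15, 2.56 and 1.92 in sham, 1.56, 1.17, 1.39 and 1.06 at day 3, and 1.85, 1.91, 1.94 and 1.89 at day 7. Its log2 fold change was -0.90 ± 0.16 at day 3 (adjusted p 0.000611 by limma) and -0.30 at day 7 (adjusted p 0.217). The small subunits Uqcr11 (-0.55) and Uqcrb (-0.34) had also fallen, on the brightest probe of each. The other 2 probes of Uqcr11 were not called (-0.08 and -0.24), and its call was lost under quantile normalization (-0.10, adjusted p 0.506) and with the mean of its probes (adjusted p 0.106). The other probe of Uqcrb had fallen by 1.08 (adjusted p 0.00455), and the call of the brighter one was lost under quantile normalization (adjusted p 0.0592). Uqcr10, another small subunit, which is no member because its name differs from the rule, had fallen by 0.69 (adjusted p 0.0013 by limma). It is 1 of 4 such tested genes of the complexes. The others, Cox6b1 among them, were not called at day 3. The median of the 4 was -0.12, where that of all tested genes was -0.13.

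Cyc1, the cytochrome c1 heme protein, had fallen by 0.32 at day 3, from 3.61 ± 0.05 to 3.30 ± 0.09 (mean ± SD, n = 4, adjusted p 0.043 by limma), and stood at 3.66 ± 0.16 at day 7. The call sits near the threshold and was lost in 9 of the 12 fits that left out an array. That of Uqcrb at day 3 (adjusted p 0.0361) was lost in 5 of them. The Rieske iron-sulfur protein Uqcrfs1 stood at -0.39 (adjusted p 0.0553), the core proteins Uqcrc2 and Uqcrc1 at -0.28 and -0.06, and the hinge protein Uqcrh at 0.33 (adjusted p 0.104). None of these 4 passed the test.

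Cytochrome c, the soluble carrier between complexes III and IV, is encoded by Cycs. Its brighter probe read 4.14, 4.30, 4.01 and 3.86 in sham, 4.17, 4.27, 4.29 and 4.18 at day 3, and 4.04, 4.34, 4.20 and 4.05 at day 7, so the 3 groups overlapped. Its log2 fold change at day 3 was 0.15 (adjusted p 0.37), and with arrays scaled to total signal it was 0.42 (adjusted p 0.0205). A dimmer probe of the same gene gave another reading, described with the other pairs of probes.

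Complex IV, cytochrome c oxidase, has several subunits with a common form and a form restricted to some tissues. At day 3, 7 of its 15 tested members had fallen and 1, Cox6a2, had risen, with a median of -0.33. Of all tested genes 33.1% were lower and 24.2% higher. With total scaling 2 members were lower and 3 higher, and with median scaling 3 and 3. At day 7, 7 had risen from day 3 (2 with median scaling) and Cox6a2 was lower, where 18.0% of all tested genes were higher and 13.4% lower. Of the 10 tested common subunits, 5 had fallen. They include Cox8a (-0.62, adjusted p 0.00519), whose window above carries 2 ETS motifs, Ndufa4 (-0.60, adjusted p 0.00289), which was long counted with complex I, and Cox7a2 (-0.59, adjusted p 0.00469). Cox8a read 4.83, 4.83, 4.78 and 5.08 in sham, 4.22, 4.22, 4.57 and 4.05 at day 3, and 4.66, 4.78, 4.46 and 4.93 at day 7. Its rise of 0.44 by day 7 (adjusted p 0.0481 by limma) was lost in 8 of the 12 fits that left out an array. The common forms Cox6a1 and Cox4i1 did not pass. Cox6a1 read between 5.83 and 6.14 in sham, 5.77 and 6.07 at day 3, and 5.86 and 6.10 at day 7. Its log2 fold change at day 3 was -0.07 (adjusted p 0.669 by limma), and under quantile normalization it was 0.42 (adjusted p 0.0139).

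Cox8b, a tissue-restricted form, fell most among all members. It is the form of heart, skeletal muscle and brown fat. Its probe lies at chr1:201057325-201057384 of rn4. It read -0.99, -1.82, -0.93 and -2.29 in sham, -4.01, -4.01, -3.97 and -4.25 at day 3, and -3.10, -3.42, -3.10 and -3.25 at day 7. Both injured groups lay below every sham array, and day 7 lay above day 3. The log2 fold change was -2.55 ± 0.27 at day 3 (5.88-fold lower, adjusted p 2.11e-05 by limma) and -1.71 ± 0.27 at day 7 (3.27-fold lower, adjusted p 0.00203). The probe was well above background on 3 of the 4 day 3 arrays and on all sham and day 7 arrays. The rise from day 3 to day 7 (0.85, adjusted p 0.0317) was lost under quantile normalization (adjusted p 0.147), when the slide was a block (adjusted p 0.065) and in 6 of the 12 fits that left out an array.

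Cox6a2 is the heart and muscle form of the subunit whose common form is Cox6a1. It was well above background on 0 of 4 sham arrays, on 4 of 4 day 3 arrays and on 0 of 4 day 7 arrays. It read -6.43, -4.23, -5.35 and -6.47 in sham, -2.97, -2.77, -3.06 and -2.58 at day 3, and -6.17, -6.16, -3.86 and -5.39 at day 7. Since the dim groups have a bound alone, day 3 was at least 2.18-fold higher than sham and at least 2.04-fold higher than day 7. Limma's adjusted p (0.00122 and 0.00665) came from the readings, which in the dim groups were not well above background, and adds no support to the bounds. The probe passed the filter through day 3 alone, where it is 1 of the 3 members counted as higher. Each bound sets the mean of the bright group against the lowest signal that stood well above background on the dim group's arrays, or the probe's own where that was higher. With a background model (normexp) in which spots below their local background were left out, the day 3 difference was 0.25 and did not pass (adjusted p 0.212).

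Cox4i2, the lung form of subunit 4, had fallen by 0.95 at day 3 (adjusted p 0.00744 by limma), with arrays that overlapped with sham. Cox6b2, a testis form, stood at 0.36 (adjusted p 0.128) and passed under quantile, total and median scaling (adjusted p 0.0142 to 0.0482). Muscle markers stood beside these forms as follows. Of 8, 3 were tested: Tnnc2 had fallen by 2.31 and Actc1 by 1.72 at day 3, and Acta1 had risen by 0.65. Myh1 and Myl1 were not well above background on any array. The summed signal of the 8, as a multiple of the 75th percentile, ranged over the sham arrays from 2.39 to 3.2, over the day 3 arrays from 1.45 to 1.82 and over the day 7 arrays from 1.65 to 2.3. Of 6 fat markers, 2 were tested, Adipoq (-0.06) and Cidea, which had risen by 1.72. Ucp1, Fabp4 and Lep were not well above background on any day 3 array, and the summed signal of the 6 ranged from 0.284 to 0.96 (sham), from 0.816 to 0.906 (day 3) and from 0.644 to 1.2 (day 7). The part of such cells in the values of Cox8b and Cox6a2 was not tested.

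**Figure D3:**
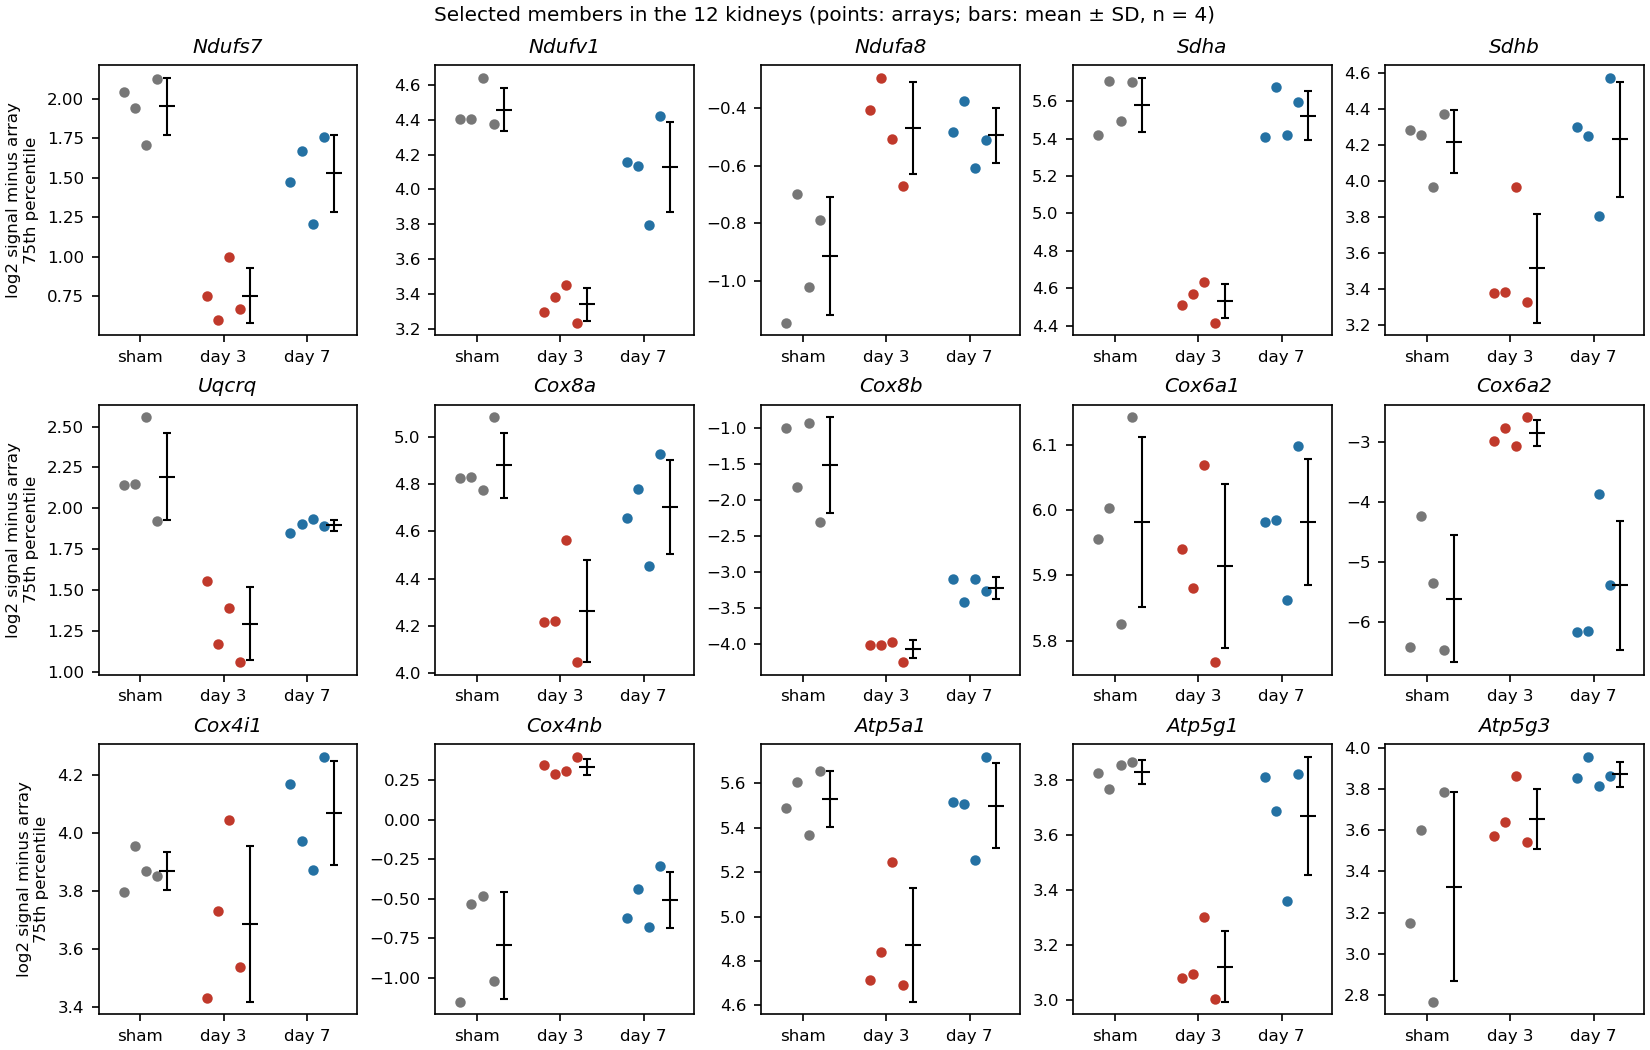
Each panel shows a member named in the text, with 1 point per array on a y axis of log2 signal minus the array's 75th percentile, and mean ± SD (n = 4) beside each group. Y axes do not start at 0 and differ between panels. Sdha and Atp5g1 drop at day 3 and return, Cox8b stays below sham, and Cox6a2 and Cox4nb peak at day 3.

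Cox4i1, the common form of subunit 4, and Cox4nb (Emc8) are neighbours that start in opposite directions on chromosome 19. On GRCr8 their RefSeq starts lie 148 bases apart, and the windows share 247 bases. Both windows hold the same 2 ETS motifs, shown in capitals on the plus strand at chr19:65630385-65630414.
Cox4i1: tCTTCCGGtgcgggacccgctCTTCCGGtc

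The transcripts of this pair differed at day 3. Cox4nb had risen in every day 3 kidney. It read -1.15, -0.53, -0.48 and -1.02 in sham, 0.35, 0.29, 0.31 and 0.40 at day 3, and -0.62, -0.44, -0.68 and -0.30 at day 7. The log2 fold change was 1.13 ± 0.17 at day 3 (2.19-fold higher, adjusted p 0.000201 by limma) and 0.29 at day 7 (adjusted p 0.263). Cox4i1 read 3.80, 3.96, 3.87 and 3.85 in sham, 3.43, 3.73, 4.05 and 3.54 at day 3, and 4.17, 3.97, 3.87 and 4.27 at day 7. Its day 3 arrays overlapped with sham, and the log2 fold change was -0.18 ± 0.16 (adjusted p 0.339).

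Complex V, the ATP synthase, joins the catalytic F1 head to a rotating ring of c subunits in the membrane. At day 3, 8 of its 15 members had fallen, with a median of -0.47, where 33.1% of all tested genes were lower. With total scaling 3 were lower and 1 higher, and with median scaling 4 were lower and 0 higher. Between day 3 and day 7, 9 rose: the 8 that had fallen and Atp5j. Of all tested genes 18.0% were higher at day 7 than at day 3. With total scaling 7 members rose, and with median scaling 0 did. Of the F1 subunits, the catalytic Atp5b (-0.47) and its partner Atp5a1 (-0.66) had fallen, as had Atp5e (-0.70), while Atp5c1 (-0.25) and Atp5d (-0.04) did not pass. Atp5a1 read 5.49, 5.61, 5.37 and 5.65 in sham, 4.71, 4.84, 5.25 and 4.69 at day 3, and 5.52, 5.51, 5.25 and 5.72 at day 7 (adjusted p 0.00433 at day 3 by limma). In the peripheral stalk, which holds the head still, Atp5o (-0.50) and Atp5h (-0.47) had fallen, and Atp5f1 (-0.35) and Atp5j (-0.26) did not pass. One array had a saturated Atp5f1 spot. Of the small membrane subunits, Atp5j2 (-0.87) and Atp5i (-0.57) had fallen and Atp5l (-0.21) did not pass.

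The c ring shows a split among 3 genes whose mature proteins are known to be the same. Atp5g1 had fallen. It read 3.83, 3.77, 3.86 and 3.87 in sham, 3.08, 3.10, 3.30 and 3.00 at day 3, and 3.81, 3.69, 3.36 and 3.82 at day 7, with no overlap between day 3 and the rest. The log2 fold change was -0.71 ± 0.14 at day 3 (1.63-fold lower, adjusted p 0.00104 by limma) and -0.16 at day 7 (adjusted p 0.451). Atp5g2 stood at 0.01 ± 0.13 at day 3 (adjusted p 0.973) and at -0.05 at day 7. Atp5g3 stood at 0.33 ± 0.20 at day 3 (adjusted p 0.179) and at 0.55 at day 7 (adjusted p 0.0763), where every day 7 array, 3.82 to 3.96, lay above the sham arrays, 2.77 to 3.79. The day 7 difference of Atp5g3 passed under quantile normalization (adjusted p 0.0469), total scaling (adjusted p 0.0192) and the mean of its probes (adjusted p 0.0475), and its dimmer probe was called higher at day 7 (0.73, adjusted p 0.034). The differences between these genes were not tested.

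Of the assembly factors with a matching name, 5 were tested and 1 passed. Ndufaf3, which helps to build the Q module of complex I, had fallen by 0.91 at day 3, from 1.34 ± 0.24 to 0.43 ± 0.11 (mean ± SD, n = 4, adjusted p 0.000696 by limma), and stood at 0.87 ± 0.25 at day 7. Of 34 other assembly factors tested, 8 had fallen and 2 had risen at day 3, with a median of -0.12 (-0.13 over all tested genes). Of all tested genes 33.1% were lower and 24.2% higher, so neither count stands above that background. Taco1, which activates translation of a mitochondrial oxidase subunit, had fallen by 1.36, and Sdhaf3, a complex II assembly factor, by 1.30. Bcs1l, which inserts the Rieske protein into complex III, was not well above background on any sham array and was at least 2.33-fold higher at day 3. Its adjusted p by limma (0.00112) came from readings that in sham were not well above background. Tmem126b, a complex I assembly factor, had risen by 0.46 (adjusted p 0.0371).

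For 20 members the array held more than 1 probe, and for 19 of them more than 1 was tested. The brightest stands for the gene above, and adjusted p-values of single probes are adjusted over all probes. In none of the 19 did limma call a pair of probes in opposite directions in any of the 3 comparisons, but in 7 genes at day 3 one probe was called and another was not. The dimmer probes of Ndufs4, Atp5d, Cycs and Ndufb4 had fallen where the brighter ones did not pass. For Ndufs4, a complex I accessory subunit, the probe at chr2:45840188-45840247 of rn4 gave 0.02 at day 3, and the probe at chr2:45840002-45840061 gave -1.42 ± 0.21 (adjusted p 0.000175). For Atp5d the values were -0.04 and -1.33, for Cycs 0.15 and -0.58, and for Ndufb4 -0.27 and -0.42. In Atp5j2 and Cox7a2 the brighter probe had fallen, by 0.87 and 0.59, and the dimmer one stood at 0.22 and 0.35, neither called. With the mean of the probes the day 3 calls of Atp5j2 (adjusted p 0.0515) and Cox7a2 (adjusted p 0.54) were lost. A call on such a gene is thus a call on 1 probe, and which transcripts each probe binds was not tested.

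**Figure D4:**
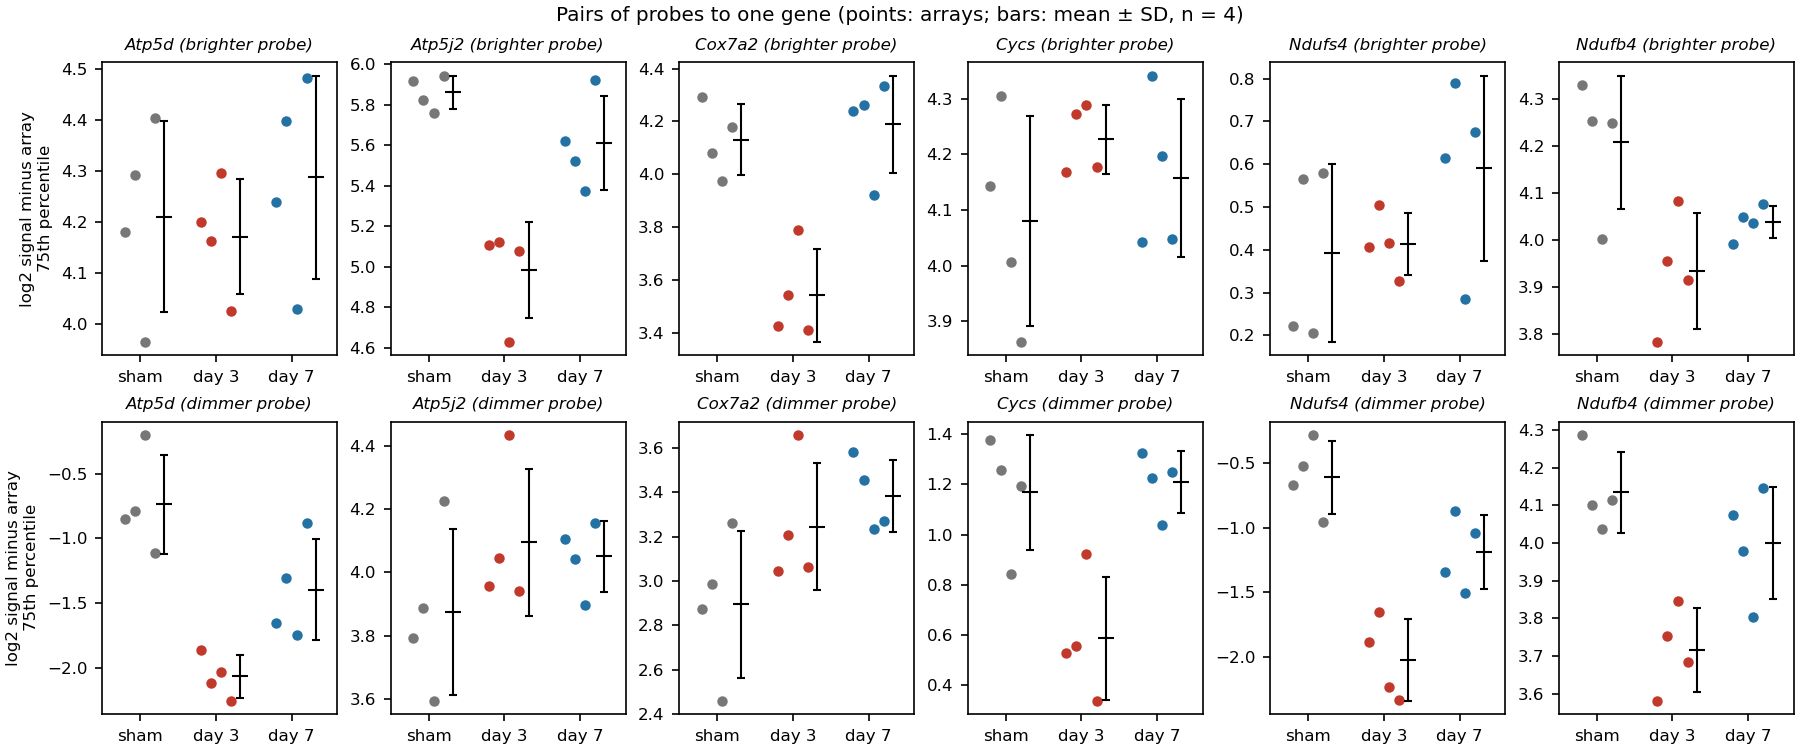
For 6 genes with calls that differ between probes at day 3, the upper panel shows the brighter probe and the lower panel the dimmer one, with 1 point per array and mean ± SD (n = 4) on a y axis of log2 signal minus the array's 75th percentile. Y axes differ between panels. In Ndufs4 the 4 day 3 arrays lie between -2.33 and -1.65 on the dimmer probe, below sham, and between 0.33 and 0.50 on the brighter probe, within the sham range.

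Of 23 tested regulators of mitochondrial genes, 10 had fallen and 3 had risen at day 3, with a median of -0.54, where 33.1% of all tested genes were lower and 24.2% higher. At day 7, 1 was lower than in sham, and 9 were higher than at day 3, where 18.0% of all tested genes were higher. The widest fall was that of Ppara, a nuclear receptor that drives fatty acid oxidation, by 3.33 at day 3 (adjusted p 5.12e-06 by limma) and by 1.96 at day 7 (adjusted p 0.000886). Ppargc1b, a coactivator related to PGC-1α, had fallen by 1.99. The estrogen-related receptors Esrra (-0.69, adjusted p 0.00516) and Esrrg (-1.44) had fallen as well. Ppargc1a, which encodes PGC-1α itself, stood at -0.54 at day 3 (adjusted p 0.0595) and was 0.97 higher at day 7 than at day 3 (adjusted p 0.00957). Nrf1 (-0.06) and Tfam (0.19), the mitochondrial transcription and packaging factor, did not pass at day 3. Gabpa had risen by 1.80 ± 0.68 (adjusted p 0.0378), on a probe well above background on 3 of the 4 sham arrays. Hif1a, the oxygen-regulated factor, had risen by 0.65.

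**Figure D5:**
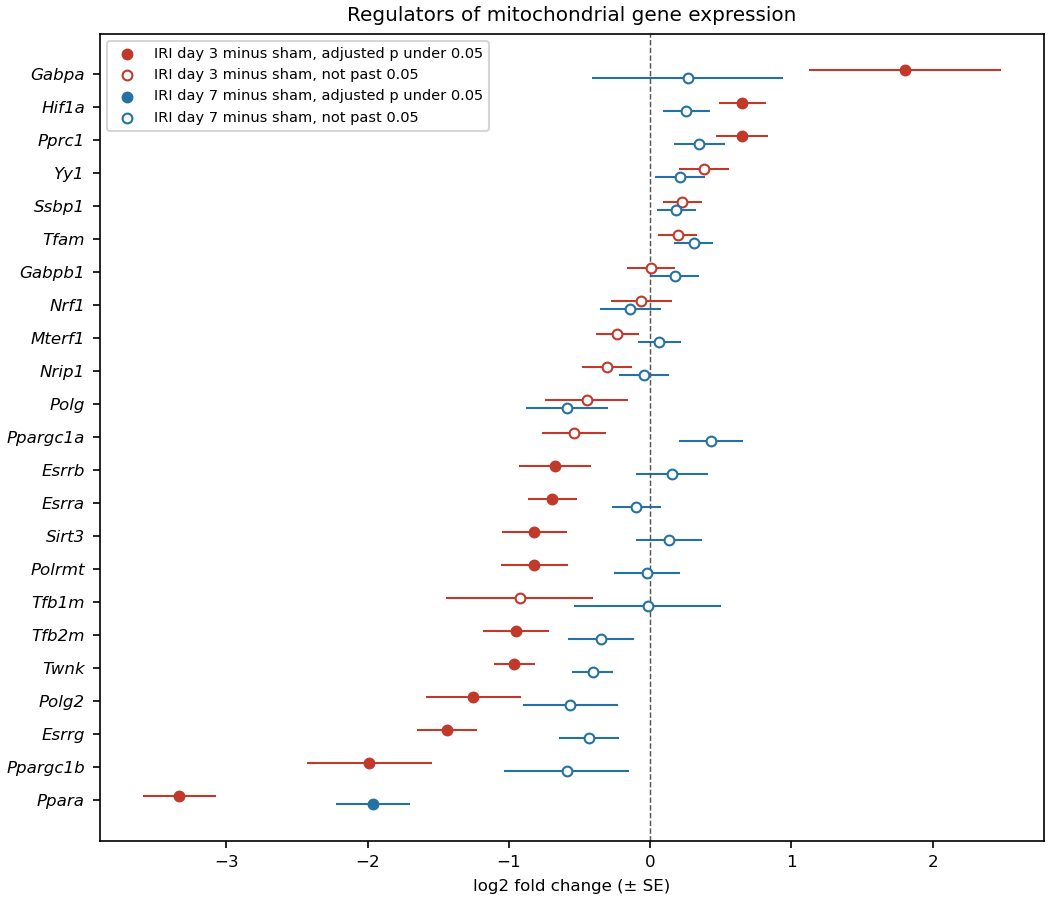
Rows are the 23 tested regulators, with the log2 fold change ± SE against sham on the x axis at day 3 (red) and day 7 (blue). Filled points passed limma's adjusted p of 0.05. At day 3 filled points run from Ppara at -3.33 to Gabpa at 1.80, and at day 7 Ppara alone is filled.

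Among 18 tested genes that feed electrons in or make coenzyme Q, 9 had fallen at day 3, with a median of -0.46, where 33.1% of all tested genes were lower, and 4 were lower at day 7, where 10.6% were. Prodh, proline dehydrogenase, had fallen by 4.22 at day 3 and by 2.75 at day 7. Etfb, a subunit of the flavoprotein that carries electrons from fatty acid oxidation, had fallen by 1.39 and 0.48. Coq10a, a coenzyme Q binding protein, had fallen by 1.38 and 0.93, and its relative Coq10b by 1.22 and 1.27. Of 10 tested genes of ATP and phosphate exchange, 4 had risen and 2 had fallen at day 3, where 24.2% of all tested genes were higher and 33.1% lower. Ucp2, an inner membrane carrier, had risen by 2.27 and Slc25a4, an ADP/ATP carrier, by 0.70, while Vdac1, an outer membrane channel, had fallen by 0.75 and Slc25a5, another ADP/ATP carrier, by 0.67. Ckmt1, mitochondrial creatine kinase, had risen by 1.35 at day 7.

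Transcripts that mark cell types moved with these groups. Of all tested genes 33.1% were lower and 24.2% higher at day 3, and 10.6% were lower at day 7. At day 3, 9 of 10 proximal tubule markers had fallen, with a median of -2.90, and at day 7, 2 had. Their summed signal, as a multiple of the 75th percentile, ranged from 495 to 517 over the sham arrays, from 45.5 to 155 over the day 3 arrays and from 181 to 390 over the day 7 arrays. All 5 markers of the thick ascending limb and all 6 tested markers of the distal tubule and collecting duct had fallen at day 3, and in their summed signals no day 3 array overlapped with sham. The thick limb sum ranged from 63.1 to 75.5 (sham), from 2.61 to 7.5 (day 3) and from 27.7 to 41.7 (day 7). The distal sum ranged from 32.3 to 45.3 (sham), from 6.81 to 10.7 (day 3) and from 46.1 to 58.8 (day 7). All 7 tested fibroblast and matrix markers had risen at day 3, with sums of 17.0 to 29.5 in sham and 89.1 to 135 at day 3, as had all 7 proliferation markers, with sums of 1.62 to 2.8 and 16.6 to 26.8. Of 7 tested macrophage markers, 4 had risen, with sums of 6.7 to 9.24 and 12.5 to 19.7. Adrenal markers summed to 0.524 to 0.836 in sham and 0.334 to 0.448 at day 3. Of 3 tested, 1 had fallen, a share close to that of all tested genes. The part of these changes in the fall of the members was not tested.

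The arrays came from 3 slides, each with kidneys of all groups, and were read in 2 scan batches. Within slides 1, 2 and 3 the median member stood at -0.23, -0.57 and -0.16 at day 3 against sham, where the median of all genes was -0.11, -0.10 and -0.22. On slide 3, which held 1 sham and 1 day 3 array, the members' median was thus not below that of all genes.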

How the data were processed

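RNA of 12 left kidneys, 4 per group, was hybridised to single-colour (Cy3) Agilent rat arrays. Where nothing else is said, p-values measure the spread between these rats. The number of arrays limits the precision. Per the file headers, Agilent Feature Extraction 9.5.1.1 gave each spot a background-subtracted and detrended intensity, with other values for flags (well above background, saturated, outlier). Probe positions are those of the build rn4 in the deposited files, and exon or UTR annotation was not used here. The labelling kit named in the labels is one for DNA, which the sources used here do not explain.

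Spots with an outlier flag were left out, and replicate spots (1390 probes) were averaged. The log2 of the intensity minus the log2 of the array's 75th percentile was taken. A probe was kept where some group had it well above background on each of its 4 arrays (21071 of 30367), and the brightest probe stood for a gene, which left 18517 genes. All 12 arrays were fitted with limma 3.58.1 in R 4.3.3 (lmFit and eBayes, 1 mean per group), with Benjamini-Hochberg adjustment over all genes and a threshold of 0.05. The procedure was tested on simulated data. Current symbols came from RefSeq (GRCr8), which was used for names and promoter windows.

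The authors' deposited value table is on a log2 scale. Set against the scanner values (Pearson r at least 0.998 on each array), it was scaled to the 75th percentile and centred on each probe's median over the arrays. Its column medians ran from -0.21 to 0.30. How its values were floored stays unknown. It served as an alternative, beside quantile, total and median scaling, normexp (offset 50), filters, probe averaging, slide, scan batch and replicate number as blocks, and leaving out each array.

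The members and lists were chosen with earlier results of these data known. Named with values are all complex II subunits, Cyc1 and Cycs, and the 2 widest called changes in each direction per complex. Tissue-restricted and c ring forms are also named, with their common partners among the members. In the other lists, the 2 widest changes in each direction are named with 6 regulators (Ppargc1a, Esrra, Esrrg, Nrf1, Gabpa and Tfam). The values of 1 member are not reported here. Other genes were named for their role or outcome after their values were seen.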

Additional observations from a re-analysis of the deposited data

Results flagged for a closer look

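In 5 of 87 groups of 4 arrays checked among the named members, 1 array lay far from the others by Dixon's test at the 95% level, and chance alone flags about 1 in 20. Atp5j2 had a lowest day 3 array of 4.63, with the next at 5.08. Cox8b had a lowest day 3 array of -4.25, with the next at -4.01. Cyc1 had a highest day 3 array of 3.43, with the next at 3.26, and a lowest day 7 array of 3.43, with the next at 3.70. Sdhb had a highest day 3 array of 3.97, with the next at 3.39.

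The effects at day 3 and at day 7 against the same sham kidneys differed, by limma's comparison of day 7 with day 3, in 16 members of complex I, 2 of complex II, 3 of complex III, 8 of complex IV and 9 of complex V. Among all tested genes 31.4% differed in that comparison.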

How the results depend on the processing

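Counts are members called, of 89, against 3 higher and 43 lower at day 3, 0 higher and 1 lower at day 7, and 39 higher and 2 lower at day 7 against day 3. At day 3, total scaling gave 11 higher, 16 lower and a median of -0.069, and median scaling gave 9, 19 and -0.14. Of all 18517 tested genes, these scalings called 6216 higher and 4398 lower, and 5534 higher and 4913 lower. Higher members numbered 6 with quantile normalization, 5 with the authors' table and 5 with normexp without spots below local background, an alternative chosen after seeing the data. Among all tested genes 5171, 5066 and 3879 were higher in these settings. Lower members numbered 40, 31 and 35 in the same order, where 5121, 5501 and 8007 of all tested genes were lower. With the authors' table the median was -0.25 for the members and -0.03 for all genes. In complexes I to V it called 14, 3, 2, 5 and 6 members lower. Plain normexp called 0 higher and 0 lower at day 3 (median 0.0426), 0 lower at day 7 (median 0.36) and 0 higher and 0 lower at day 7 against day 3. In these comparisons it called 17.1%, 0.491% and 0.859% of all genes, and the medians of all genes were -0.41, -0.22 and 0.20. At day 7, total scaling gave 16 higher (median 0.25), quantile normalization gave 4 (median 0.13), and 2 came from the authors' table and 1 from the mean of probes. In the same order 3238, 2022, 1889 and 1505 of 18517 genes were higher. Probes well above background on all 12 arrays gave 1 higher and 0 lower at day 7 and 1 lower at day 7 against day 3. The slide as a block gave 2 lower at day 7. At day 7 against day 3, median scaling gave 11 higher (median 0.23) and no filter 24, where 2406 of 18517 and 3288 of 26442 genes were higher. The replicate block gave 1 higher at day 7 and 25 higher at day 7 against day 3. The numbers do not pair rats: deviations of same-numbered arrays correlated between -0.331 and 0.142. Signs reversed at day 3 for Cox6a1 with quantile normalization (0.42), and with plain normexp for Cox6a2 (-0.35), Cyc1 (0.20) and Uqcrb (0.18). The cause was not tested.

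Leaving out an array gave 2 to 7 higher, 33 to 45 lower and a median of -0.42 to -0.32 at day 3, 0 to 3 higher, 1 to 3 lower and a median of -0.03 to 0.06 at day 7, and 17 to 44 higher, 2 to 2 lower and a median of 0.35 to 0.43 at day 7 against day 3. The 7 came without sham replicate 4, which also gave the 3 higher at day 7, and the 3 lower at day 7 came without day 7 replicate 4. Over the same fits, 5402 to 6156 of all 18517 tested genes were lower at day 3. At day 7 against day 3, 1993 to 3872 of them were higher. For the 29 members named by rule, over 3 comparisons and all alternatives, 1886 values kept direction and side of the threshold, 157 lost a call, 35 gained one and 4 reversed. The 95% intervals had a median half-width of 0.328, which differs between members.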
